A study of Rattus norvegicus with 18 samples.

Results

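Transcripts of 10 genes whose enzymes build, modify or break down sphingolipids and galactolipids were followed in the cervical dorsal root ganglia (DRG) of rats. They are 10 of the 15075 RefSeq identifiers in the mRNA count table and were found by gene symbol. *Ugt8*, *Cers2* and *B3gnt5* were selected because their counts in these same rats were lower after injury, so these 3 were chosen by their measured counts and their values are given as a description, without a test. The other 7, *Fa2h*, *Ugcg*, *Sptlc1*, *Sptlc2*, *Degs1*, *Smpd1* and *Asah1*, were selected for their place in the pathway. *Fa2h* also stands on a gene list that the study drew from these rats, so its test is not independent evidence of its direction.

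The libraries hold polyadenylated RNA of adult Lister hooded rats, with the C6-C8 DRG of 1 side pooled within each animal, and 18 rats gave 1 library each. The 6 naïve rats were unoperated and received no vector. The 6 bPYX+GFP rats had a bilateral pyramidotomy, a cut through both corticospinal tracts in the medulla, and then an injection of the viral vector AAV-1 carrying green fluorescent protein into forelimb flexor muscles of the sampled side. The 6 bPYX+NT3 rats had the same injury and the same vector carrying prepro-neurotrophin-3, and both injured groups were sampled at 10 weeks after injury. Both transgenes were driven by the CMV promoter, which is not restricted to a cell type. No group had the injury without a vector or a vector without the injury, so the effects of the cut and of the vector cannot be told apart in the comparisons with naïve rats.

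Sphingolipids start from serine and a fatty acid, which serine palmitoyltransferase joins, and several further steps yield ceramide. Ceramide is then given a galactose, a glucose or a phosphocholine head group, which makes galactosylceramide, glucosylceramide or sphingomyelin. Galactosylceramide and its sulfated form are abundant in myelin, where they commonly carry very long and hydroxylated fatty acids, and in the DRG myelin is made by Schwann cells around the axons. Breakdown takes place mainly in lysosomes.

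The depth ranged from 10057787 to 16002410 read-pairs on genes per rat. All 10 genes passed the filter (over 10 reads in 6 or more of the 12 compared rats), with between 166 reads (*B3gnt5*) and 7837 reads (*Ugt8*) in a rat. Levels are given as CPM, the reads of a gene per 1000000 reads on genes after TMM scaling, which corrects for depth but not for transcript length, so levels of different genes were not compared. The titles attached to the single-rat files name another group than the headings of the count table for 17 of 18 rats. The headings were used, which tie each rat number to a sample number of the labels, and the counts themselves were identical under the same rat number in 18 of 18 rats. The group means that the study itself reports, by rat number, matched the groups of the headings for 1998 of 1998 genes checked. The attached titles are therefore not the grouping that the study used. With the attached titles, the 4 genes described as lower after injury had log2 fold changes of the opposite sign, from 0.017 to 0.17 for bPYX+GFP and from 0.13 to 0.62 for bPYX+NT3 against naïve. Among these, *Fa2h* passed the unadjusted threshold as higher for bPYX+NT3 (0.44, unadjusted p = 0.0170, adjusted p = 0.837, edgeR). Rats 57 (bPYX+GFP) and 11 (bPYX+NT3) stood apart, with sensory neuron marker sums of 5198 and 5732 CPM against 3027 to 4197 CPM in the other 16 rats.

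The stretches just upstream of the start sites of the 4 genes that were lower in both injured groups are shown, because these are the members that were lower together. RefSeq held such a sequence for 8 of the 10 genes. Each is the 250 bases before the annotated start in the RefSeq sequence table of build GRCr8, written 5′ to 3′ along the gene. Capitals mark a GC box (GGGCGG) or a CCAAT box (CCAAT) on either strand.
Ugt8 (chr2:217007168-217007417, minus strand): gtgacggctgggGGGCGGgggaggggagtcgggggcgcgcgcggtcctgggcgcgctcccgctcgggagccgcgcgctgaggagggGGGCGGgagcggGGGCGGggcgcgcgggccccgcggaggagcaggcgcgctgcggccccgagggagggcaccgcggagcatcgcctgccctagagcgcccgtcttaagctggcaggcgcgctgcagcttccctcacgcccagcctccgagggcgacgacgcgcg
Fa2h (chr19:56273481-56273730, minus strand): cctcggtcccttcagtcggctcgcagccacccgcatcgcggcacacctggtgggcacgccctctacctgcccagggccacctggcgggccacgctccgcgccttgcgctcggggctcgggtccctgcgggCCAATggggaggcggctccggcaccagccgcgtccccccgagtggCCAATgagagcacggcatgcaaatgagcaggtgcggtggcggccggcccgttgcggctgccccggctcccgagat
Cers2 (chr2:185579261-185579510, plus strand): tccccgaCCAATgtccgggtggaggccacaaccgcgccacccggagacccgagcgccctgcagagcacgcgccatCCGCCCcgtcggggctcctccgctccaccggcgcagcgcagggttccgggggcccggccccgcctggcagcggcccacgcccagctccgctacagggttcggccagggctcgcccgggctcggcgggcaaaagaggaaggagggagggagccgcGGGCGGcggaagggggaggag
B3gnt5 (chr11:94657585-94657834, minus strand): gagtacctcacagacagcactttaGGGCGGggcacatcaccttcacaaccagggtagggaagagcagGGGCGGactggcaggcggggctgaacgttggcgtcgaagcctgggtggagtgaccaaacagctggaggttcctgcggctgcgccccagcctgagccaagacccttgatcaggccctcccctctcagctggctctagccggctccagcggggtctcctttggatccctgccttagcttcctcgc
The GC content of these stretches was 81.2% for *Ugt8*, 74.4% for *Fa2h*, 77.2% for *Cers2* and 64.0% for *B3gnt5*, against a median of 51.2% over 33469 rat promoters of the same length. *Ugt8* held 3 GC boxes, *Cers2* and *B3gnt5* 2 each and *Fa2h* none, while 30.5% of all promoters held at least 1. *Fa2h* held 2 CCAAT boxes and *Cers2* held 1, a motif present in 34.0% of all promoters. The SOX core ACAAAG (16.3% of all promoters), the EGR core GTGGGCG (6.27%), the TATA box TATAAA (12.9%) and the E box CACGTG (5.59%), searched on both strands, had no match in these 4 windows. Of the 4 other members with a sequence, *Sptlc1*, *Sptlc2*, *Degs1* and *Smpd1* each held at least 1 GC box too. Their GC content, from 60.4% to 64.4%, was also above the median and spanned that of *B3gnt5*, and *Sptlc2* held 5 CCAAT boxes, so these traits were not limited to the lower genes.

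The transcripts of *Ugt8* and *Fa2h*, whose enzymes act in making galactosylceramide with hydroxylated acyl chains, were lower in both injured groups. Enzyme protein and lipids were not measured here. *Ugt8* encodes the ceramide galactosyltransferase, which adds galactose to ceramide. Its level was 380 CPM in the lowest naïve rat, 483 CPM at the median and 678 CPM in the highest. In bPYX+GFP rats the corresponding levels were 244, 294 and 402 CPM. In bPYX+NT3 rats they were 196, 333 and 341 CPM. All 6 bPYX+NT3 rats and 4 of 6 bPYX+GFP rats lay below the lowest naïve rat. Relative to naïve rats, the fitted log2 fold change was −0.63 ± 0.15 (SE) with bPYX+GFP and −0.67 ± 0.15 with bPYX+NT3, a change of −35.5% and −37.2%.

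*Fa2h* encodes fatty acid hydroxylase, which hydroxylates the fatty acid before it is built into galactosylceramide. Its lowest, median and highest levels were 46.5, 56.2 and 76.7 CPM in naïve rats. They were 30.6, 37.0 and 46.3 CPM with bPYX+GFP and 36.7, 39.5 and 49.1 CPM with bPYX+NT3. The bPYX+GFP and naïve rats did not overlap, although the highest bPYX+GFP rat (rat 57) lay just under the lowest naïve rat, and 4 of 6 bPYX+NT3 rats lay below all naïve rats. *Fa2h* fell with bPYX+GFP by 0.60 on the log2 scale (SE 0.13, 95% interval −0.89 to −0.31, unadjusted p = 0.000556, adjusted p = 0.461, edgeR's quasi-likelihood test with Benjamini-Hochberg adjustment over 11601 genes). The exact permutation test of this single gene gave p = 0.00216 (two-sided, n = 6 per group), the smallest it can give. Against naïve rats *Fa2h* also fell with bPYX+NT3, by 0.48 on the log2 scale (SE 0.13, 95% interval −0.75 to −0.21, unadjusted p = 0.00208, adjusted p = 0.607 in the same edgeR test, exact permutation p = 0.0130). It remained past the unadjusted threshold when any 1 of the 12 rats was left out, with log2 fold changes between −0.67 and −0.51 and between −0.53 and −0.38 in the 2 comparisons. Among the fits that kept all 12 rats, the adjusted p with bPYX+GFP was under 0.05 only with DESeq2's Wald test (0.0268) and edgeR's likelihood ratio test (0.0332), and over all alternatives it ranged up to 1.00. Both comparisons share the 6 naïve rats.

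Among all genes tested between bPYX+GFP and naïve rats, 3.25% had an unadjusted p under 0.05, 2.52% with the lower level after bPYX+GFP, and in 0.233% all injured rats lay below all naïve rats. For bPYX+NT3 against naïve the corresponding shares were 6.01%, 2.92% and 0.154%. Against these shares, 1 of the 7 genes selected for the pathway, *Fa2h*, passed the unadjusted threshold in each of the 2 comparisons, and both calls were lower. The median log2 fold change of these 7 genes was 0.0048 and −0.0562, against 0.0118 and 0.0005 over all genes tested. By edgeR's quasi-likelihood test 0 genes of the whole table passed after adjustment in either comparison, while 377 and 703 passed without it, and DESeq2's Wald test and edgeR's likelihood ratio test gave 16 and 13 genes after adjustment in the first comparison and 0 in the second. Because the ganglion was sequenced whole, fewer cells of a type and less RNA per cell cannot be told apart.

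**Figure D1:**
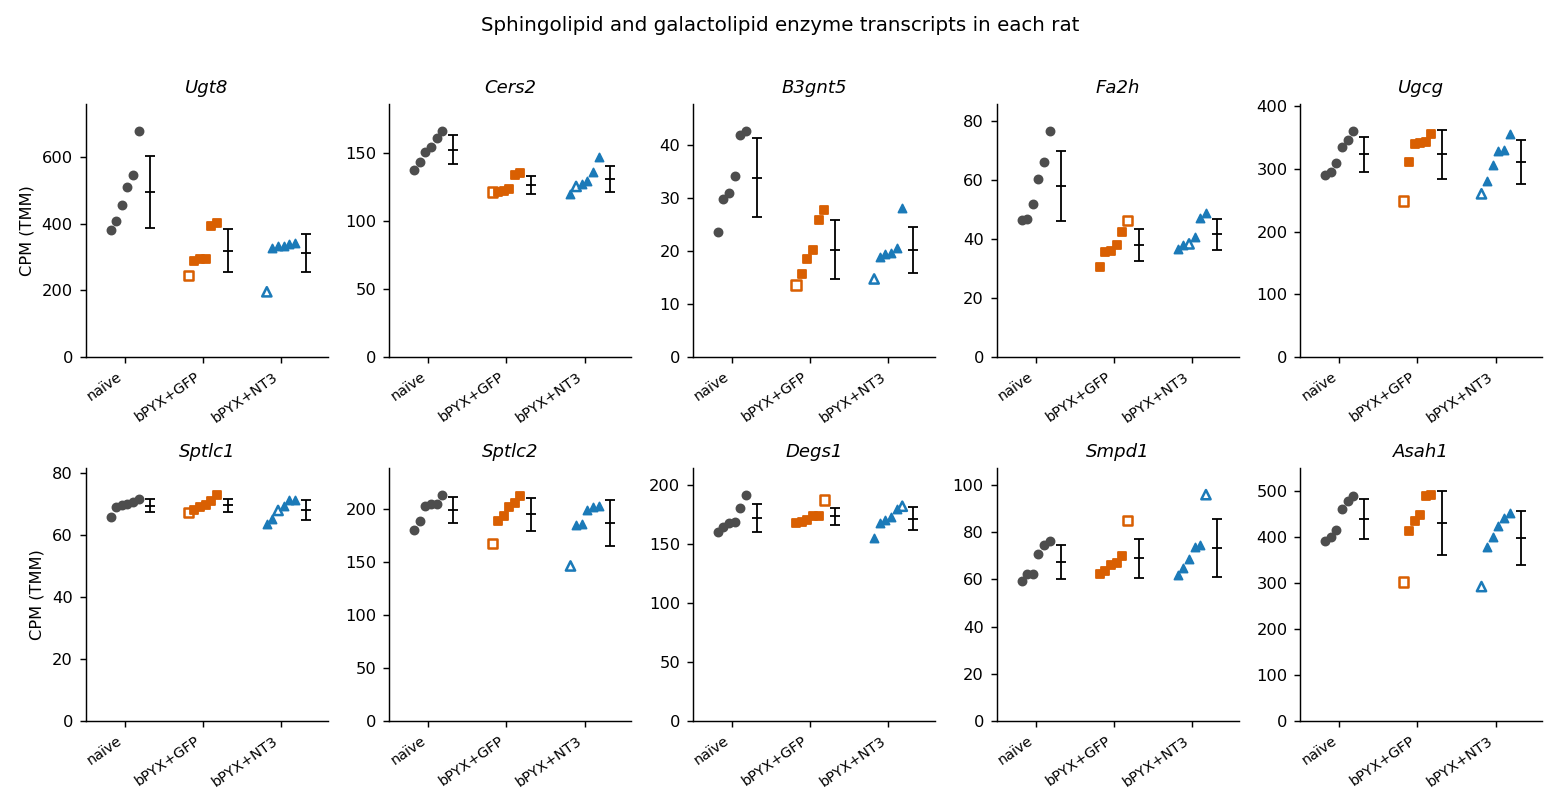
Level of each of the 10 transcripts (CPM after TMM scaling, linear axis from 0) in each rat, with 1 symbol per rat, 6 rats per group, open symbols for rats 57 and 11 and a black bar for the mean ± SD. *Ugt8*, *Cers2*, *B3gnt5* and *Fa2h* sit lower in both injured groups, although some injured rats lie within the naïve range. The other 6 genes also overlap in level between the groups, and none of them passed the test against naïve rats.

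*Cers2* encodes the ceramide synthase that attaches very long acyl chains, the kind that myelin galactolipids carry. Its lowest, median and highest levels were 138, 153 and 166 CPM in naïve rats, 121, 123 and 135 CPM with bPYX+GFP and 120, 128 and 147 CPM with bPYX+NT3. All 6 bPYX+GFP rats and 5 of 6 bPYX+NT3 rats lay below the lowest naïve rat. The difference was smaller than for *Ugt8* in size but the rats of a group also varied less, with a coefficient of variation of 5.18% to 7.36% against 18.2% to 21.8%. The log2 fold change was −0.26 ± 0.06 (SE) with bPYX+GFP and −0.22 ± 0.06 with bPYX+NT3, a change of −16.7% and −14.0%.

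*B3gnt5* encodes the N-acetylglucosaminyltransferase that starts the lacto- and neolacto-series glycolipids on lactosylceramide, downstream of glucosylceramide. Its lowest, median and highest levels were 23.6, 32.6 and 42.6 CPM in naïve rats, 13.6, 19.4 and 27.7 CPM with bPYX+GFP and 14.7, 19.5 and 28.1 CPM with bPYX+NT3. The groups overlapped through the highest injured rats, with 4 of 6 bPYX+GFP rats and 5 of 6 bPYX+NT3 rats below the lowest naïve rat. The log2 fold change was −0.74 ± 0.18 (SE) with bPYX+GFP and −0.74 ± 0.16 with bPYX+NT3, a change of −40.2% in each.

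*Ugcg* encodes the ceramide glucosyltransferase, which supplies the glucosylceramide that the branch of *B3gnt5* starts from and competes with *Ugt8* for ceramide. Its lowest, median and highest levels were 291, 322 and 360 CPM in naïve rats, 249, 340 and 355 CPM with bPYX+GFP and 260, 317 and 356 CPM with bPYX+NT3. The 3 groups overlapped almost entirely. No difference in *Ugcg* was detected against naïve rats, with a fitted change of 0.333% with bPYX+GFP (95% interval −11.3% to 13.5%, unadjusted p = 0.955, edgeR) and −3.82% with bPYX+NT3 (95% interval −14.8% to 8.60%, unadjusted p = 0.503, edgeR).

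*Sptlc1*, *Sptlc2* and *Degs1*, which act on the way to ceramide, did not pass the test in either comparison. *Sptlc1* and *Sptlc2* encode subunits of serine palmitoyltransferase, the entry step, and *Degs1* encodes the desaturase that turns dihydroceramide into ceramide. *Sptlc1* had the narrowest spread of all 10 genes, from 63.4 to 73.0 CPM over the 18 rats. Its change was 0.634% with bPYX+GFP (95% interval −5.73% to 7.42%) and −1.99% with bPYX+NT3 (95% interval −8.98% to 5.53%). Both intervals exclude a change as large as the fitted fall of *Fa2h*.

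For *Sptlc2* the lowest, median and highest levels were 181, 204 and 214 CPM in naïve rats, 168, 198 and 213 CPM with bPYX+GFP and 146, 193 and 203 CPM with bPYX+NT3. All 6 bPYX+NT3 rats lay below the naïve median, but the change of −6.20% (95% interval −16.5% to 5.32%, unadjusted p = 0.256, edgeR) did not pass the test. *Degs1* ranged from 160 to 192 CPM in naïve rats, from 168 to 187 CPM with bPYX+GFP and from 155 to 182 CPM with bPYX+NT3. Its change was 1.30% with bPYX+GFP (95% interval −6.82% to 10.1%) and −0.303% with bPYX+NT3 (95% interval −8.48% to 8.61%).

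The transcripts of 2 lysosomal enzymes that release and degrade ceramide, *Smpd1* and *Asah1*, did not pass the test either. *Smpd1* encodes acid sphingomyelinase, which frees ceramide from sphingomyelin. Its lowest, median and highest levels were 59.4, 66.6 and 76.1 CPM in naïve rats, 62.4, 66.6 and 85.0 CPM with bPYX+GFP and 62.1, 71.3 and 96.0 CPM with bPYX+NT3. The 2 highest rats of all were rats 11 and 57. Its change was 2.80% with bPYX+GFP (95% interval −10.3% to 17.9%) and 8.66% with bPYX+NT3 (95% interval −6.86% to 26.8%).

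*Asah1* encodes acid ceramidase, which splits ceramide into sphingosine and a fatty acid. Its lowest, median and highest levels were 391, 438 and 490 CPM in naïve rats, 303, 442 and 493 CPM with bPYX+GFP and 293, 413 and 453 CPM with bPYX+NT3. Here rats 57 and 11 were the lowest of their groups. The change was −1.86% with bPYX+GFP (95% interval −15.7% to 14.3%) and −9.27% with bPYX+NT3 (95% interval −21.8% to 5.24%, unadjusted p = 0.181, edgeR).

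Comparison of bPYX+NT3 with bPYX+GFP rats asks whether the neurotrophin altered these transcripts after injury. None of the 7 genes selected for the pathway passed the unadjusted threshold, against 1.73% of all genes tested in either direction, and in none of the 10 genes were the groups without overlap, against 0.0516% of all genes. After adjustment 0 genes of the table passed by any of the 3 tests named above, and 201 passed edgeR's quasi-likelihood test without adjustment. *Fa2h* was 9.10% higher with bPYX+NT3 (95% interval −7.32% to 28.4%, unadjusted p = 0.271, adjusted p = 0.851, edgeR), with 5 of 6 of its rats above the median of the other group. Without rats 11 and 57 the log2 fold change of *Fa2h* was 0.22 with an unadjusted p of 0.0476 in edgeR, and this alternative was chosen after seeing the data. The other 6 genes had fitted changes between −7.54% (*Asah1*) and 6.11% (*Smpd1*). As a description, *Ugt8* differed by −2.70% (95% interval −21.5% to 20.6%), *Cers2* by 3.48% (−5.18% to 12.9%) and *B3gnt5* by −0.0924% (−23.7% to 30.7%).

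**Figure D2:**
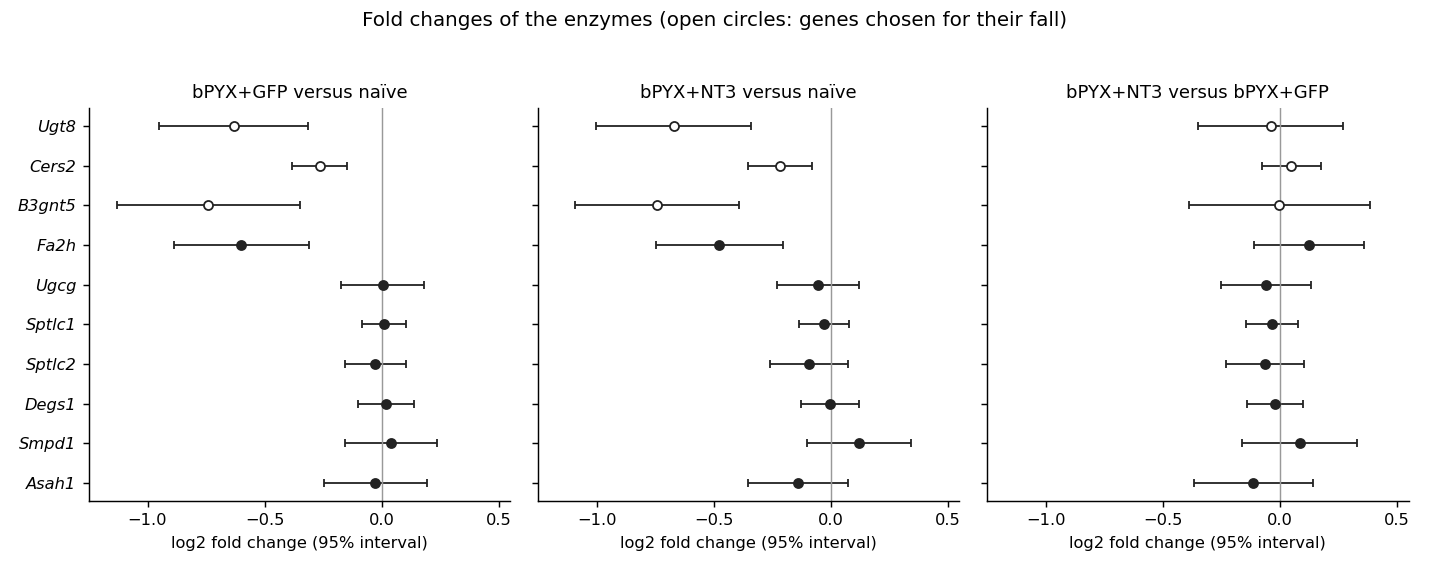
Fitted log2 fold change of each gene (point) with its 95% interval (line) in the 3 comparisons, 6 rats against 6. Open circles mark *Ugt8*, *Cers2* and *B3gnt5*, which were selected for their lower level after injury. The intervals of *Fa2h* lie below 0 against naïve rats in both injured groups, and all intervals of the third comparison include 0.

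The summed transcripts of 8 myelin proteins of Schwann cells were lower after injury as well. The sum ranged from 4190 to 5858 CPM in naïve rats, from 3678 to 4653 CPM with bPYX+GFP and from 4047 to 4541 CPM with bPYX+NT3. The log2 difference of the sum from naïve rats was −0.29 with bPYX+GFP (exact permutation p = 0.0152, n = 6 per group) and −0.25 with bPYX+NT3 (exact permutation p = 0.0108). All 8 markers matched and none was at 0 in all rats, and 3 of 8 passed the unadjusted threshold with a lower level in each of these comparisons. Oligodendrocyte markers, which would mark spinal cord tissue, summed to 8.56 to 14.6 CPM over all rats. Most of this sum was *Mog*, with means of 9.98, 8.91 and 8.16 CPM in naïve, bPYX+GFP and bPYX+NT3 rats, while *Olig1* lay between 0 and 0.101 CPM. This sum was also lower after bPYX+NT3 than in naïve rats (log2 difference −0.26, exact permutation p = 0.0108). The part of the myelin cells in the results above was not tested.

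*Fa2h* followed the myelin sum most closely of the 10 genes. Over the 18 rats Pearson's r on log2 values was 0.92 and Spearman's rho 0.88 (permutation p = 1e-05 and 2e-05, the first being the smallest that 100000 resamples can give). The adjusted p over the 10 genes was 0.0001 for r and 0.0002 for rho. Within groups, that is between deviations from the group means, r was 0.83 and rho 0.82 (adjusted permutation p = 0.0002 and 0.0006). Without the 2 rats farthest from the median of the sum (rats 43 and 49, both naïve), r was 0.84. Both measures come from the same libraries.

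*Cers2* showed the next highest relation to the myelin sum, with r = 0.86 over all rats and, within groups, r = 0.66 and rho = 0.65 (adjusted permutation p = 0.0165 and 0.0245). *Ugt8* had r = 0.78 (rho = 0.72) and *B3gnt5* r = 0.75 (rho = 0.66) over all rats, values that, like that of *Cers2*, include the group difference for which the genes were selected. Within groups their r was 0.54 and 0.44, with rho of 0.52 and 0.39, and neither r passed the threshold (adjusted permutation p = 0.0733 and 0.158). For the other 6 genes r over all rats lay between −0.13 and 0.25, with adjusted permutation p values from 0.64 to 0.84. With library size in place of TMM scaling, *Ugcg* had rho = −0.56 (adjusted permutation p = 0.036) but r = −0.42 (adjusted permutation p = 0.166). Without rats 43 and 49, r was 0.73 for *Cers2*, 0.58 for *Ugt8* and 0.54 for *B3gnt5*.

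**Figure D3:**
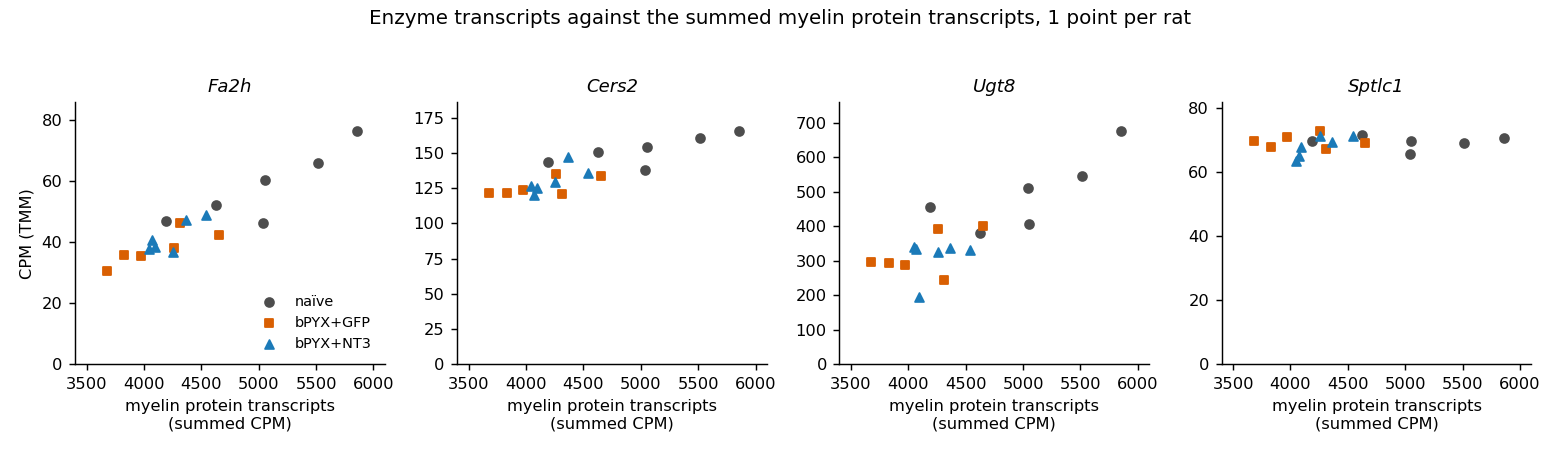
Level of *Fa2h*, *Cers2*, *Ugt8* and *Sptlc1* (CPM after TMM scaling, y axis) against the summed CPM of 8 myelin protein transcripts (x axis), with 1 point per rat and a symbol per group. *Fa2h* is higher where the sum is higher, along 1 band that holds all 3 groups (r = 0.92), whereas *Sptlc1* stays level (r = 0.16).

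Expressed per 1000 CPM of the myelin sum of the same rat, the 4 lower genes differed in their pattern. This way of scaling was chosen after seeing the data and is a description. *Cers2* stood at 30.4 ± 2.64 (SD, n = 6) in naïve rats, at 30.8 ± 1.92 after bPYX+GFP and at 30.9 ± 1.52 after bPYX+NT3, log2 differences of 0.02 and 0.03 from naïve rats. *Ugt8* was 97.9 ± 14.1, 77.4 ± 12.5 and 73.6 ± 13.2 in that order. *B3gnt5* was 6.70 ± 1.09, 4.91 ± 1.17 and 4.78 ± 0.954, and *Fa2h* 11.5 ± 1.29, 9.23 ± 0.813 and 9.84 ± 0.876 in the same order. For these 3 genes the log2 difference from naïve rats was −0.34, −0.47 and −0.31 with bPYX+GFP and −0.42, −0.49 and −0.22 with bPYX+NT3, and the groups overlapped in each case. Because the sum itself had log2 differences of −0.29 and −0.25 from naïve rats, this scaling raises every gene correspondingly. The other 6 genes accordingly stood above naïve rats, by log2 differences of 0.25 to 0.32 with bPYX+GFP and 0.10 to 0.36 with bPYX+NT3.

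Within groups many of the 10 genes varied together or in opposite directions. The share of such pairs among all genes was not computed, so the count below is not read as particular to these genes. Of 45 pairs of genes, 22 had an adjusted permutation p under 0.05 for Pearson's r between deviations from the group means, 14 positive and 8 negative. *Asah1* and *Smpd1*, both lysosomal, varied in opposite directions (r = −0.96, rho = −0.92), and leaving out rats 11 and 57 gave r = −0.94. *Asah1* varied with *Ugcg* (r = 0.94, rho = 0.83) and *Sptlc2* (r = 0.93, rho = 0.88). *Ugt8* varied with *Sptlc2* (r = 0.87, rho = 0.76), *B3gnt5* (r = 0.84, rho = 0.90) and *Asah1* (r = 0.83, rho = 0.77). The adjusted permutation p values of these pairs were between 5.62e-05 and 0.000225 for r and between 0.000112 and 0.00175 for rho. These relations were computed after seeing the data.

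*Fa2h* passed the threshold only with *Cers2* (r = 0.70, rho = 0.61, adjusted permutation p = 0.00418 and 0.0252), and without rats 11 and 57 this r was 0.83. *Sptlc1* likewise passed only with *Cers2* (r = 0.57, rho = 0.57, adjusted permutation p = 0.0279 and 0.0375). *Cers2* also passed with *B3gnt5* (r = 0.63, rho = 0.57, adjusted permutation p = 0.013 and 0.0375). With *Ugt8* its r was 0.51 and its rho 0.57 (adjusted permutation p = 0.06 and 0.0379). *Degs1* varied with *Smpd1* (r = 0.73, rho = 0.70, adjusted permutation p = 0.00241 and 0.00765). Other pairs depended more on rats 11 and 57. Without them the r of *Fa2h* went from 0.35 to 0.59 with *Ugt8* and from 0.26 to 0.48 with *B3gnt5*. That of *Ugcg* went from 0.66 to 0.40 with *Ugt8* and from 0.56 to 0.25 with *B3gnt5*. For *Ugt8* with *Sptlc2* it went from 0.87 to 0.74. No test of the pairs was run without these rats.

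The share of read-pairs that fell on no annotated feature, between 30.8% and 34.6% of the read-pairs in a rat, moved with most of these genes. Its deviations from the group means had r = 0.95 with *Asah1*, 0.93 with *Sptlc2*, 0.85 with *Ugcg* and 0.84 with *Ugt8*, and −0.96 with *Smpd1* and −0.80 with *Degs1* (adjusted permutation p from 4.29e-05 to 0.00039 over 30 relations). Spearman's rho was 0.92, 0.84, 0.74, 0.72, −0.94 and −0.73 in the same order (adjusted permutation p from 0.00015 to 0.00412). For *B3gnt5* r was 0.65 and rho 0.55 (adjusted permutation p = 0.006 and 0.0317), and for *Fa2h*, *Cers2* and *Sptlc1* the r was −0.10, 0.16 and −0.03. Without the 2 rats farthest out, r was 0.87 for *Asah1*, 0.70 for *Ugt8* and −0.90 for *Smpd1*. The sensory neuron marker sum moved the other way, with r = −0.93 for *Asah1*, −0.73 for *Ugt8* and 0.90 for *Smpd1* (adjusted permutation p from 4.29e-05 to 0.00142), and with rho of −0.75, −0.55 and 0.71 (adjusted permutation p from 0.00347 to 0.0317). The share was 30.8% in rat 11 and 31.7% in rat 57.

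Sequencing depth also moved with 5 of the genes within groups. Its r was −0.67 with *Ugt8*, −0.64 with *Asah1*, 0.58 with *Smpd1*, −0.53 with *B3gnt5* and −0.51 with *Sptlc2* (adjusted permutation p from 0.00471 to 0.0458), and rho was −0.67, −0.67, 0.56, −0.62 and −0.44 (adjusted permutation p from 0.0078 to 0.106, the last being that of *Sptlc2*). How many of all genes move with the no-feature share, the sensory neuron marker sum or depth was not computed. The part of the no-feature share, the neurons or depth in the relations between the genes was not tested.

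When the no-feature share entered the fit, the log2 fold change of *Ugt8* was −0.61 with bPYX+GFP and −0.50 with bPYX+NT3, that of *B3gnt5* was −0.73 and −0.61, and that of *Cers2* was −0.26 and −0.22. *Fa2h* fell by 0.61 and by 0.46 in this fit (unadjusted p = 0.000278 and 0.00373, edgeR). Without rats 11 and 57, *Ugt8* was at −0.57 in both injured groups, *B3gnt5* at −0.65 and −0.66 and *Cers2* at −0.26 and −0.21, while *Fa2h* fell by 0.67 and by 0.45 on the log2 scale. The 6 genes with no call stayed without a call in both fits.

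**Figure D4:**
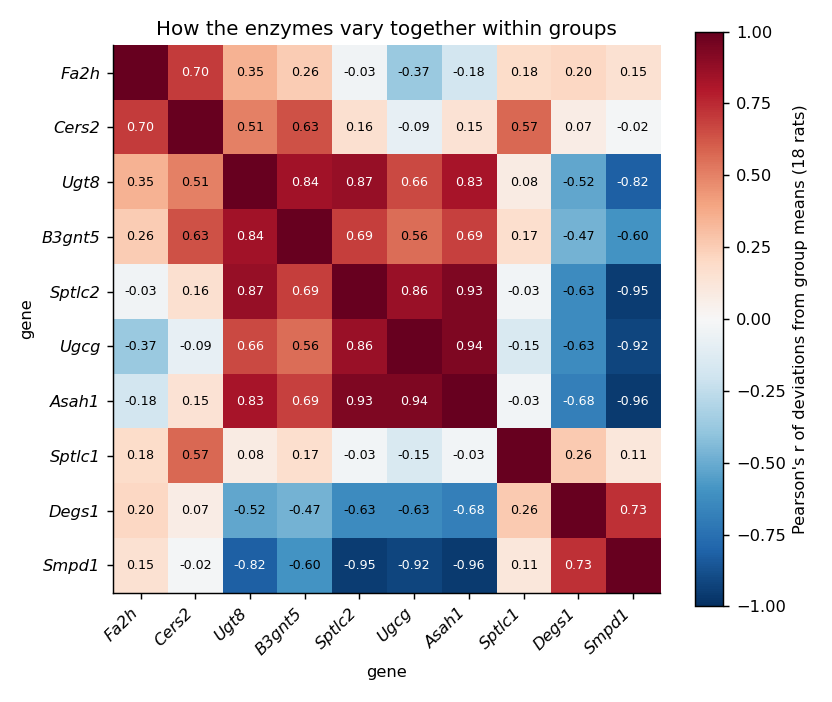
Pearson's r between the deviations of each pair of genes from their group means on the log2 CPM scale, over 18 rats, with red for positive and blue for negative values. *Ugt8*, *B3gnt5*, *Sptlc2*, *Ugcg* and *Asah1* form a positive block that *Smpd1* opposes. *Fa2h* varies with *Cers2* (r = 0.70), which also varies with *B3gnt5* of the block (r = 0.63).

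The other genes of the pathway were read from a list of 79 genes, of which 70 were found in the table and 62 passed the filter. Between bPYX+GFP and naïve rats 4 of 62 passed the unadjusted threshold, 3 lower and 1 higher, against 3.25% of all genes called and 2.52% called lower, and the median log2 fold change of the 62 was −0.01 against 0.01 over all genes tested. Of the 8 genes tested for the elongation of very long fatty acids, 2 were called lower and 6 had a negative fold change, with a median of −0.0354. Over all genes tested, 5092 of 11601 had a negative fold change. *Elovl1*, an elongase for very long chains, ranged from 80.7 to 110 CPM in naïve and from 71.1 to 84.0 CPM with bPYX+GFP, and fell by 0.27 on the log2 scale (SE 0.08, unadjusted p = 0.00361, adjusted p = 0.822, edgeR). *Hacd1*, a dehydratase of the same cycle, fell by 0.29 (SE 0.13, unadjusted p = 0.0433, adjusted p = 1.00, edgeR), a call lost without any 1 of 9 of the 12 rats. *Gltp*, a carrier of glycolipids between membranes, ranged from 20.1 to 29.0 CPM in naïve and from 16.7 to 20.8 CPM with bPYX+GFP and fell by 0.34 (SE 0.09, unadjusted p = 0.00260, adjusted p = 0.803, edgeR).

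The gene that rose was *B3gat2*, a glucuronosyltransferase of the HNK-1 carbohydrate, by 0.31 on the log2 scale (SE 0.10, unadjusted p = 0.00754, adjusted p = 0.936, edgeR). The calls of *Elovl1*, *Gltp* and *B3gat2* were kept without any 1 of the 12 rats. Without rat 57 the number of pathway genes called was 9 instead of 4. Calls over all genes tested moved too, from 272 to 595 with 1 rat left out, against 377 with all 12 rats. The galactolipid and sulfatide genes *Gal3st1*, the sulfotransferase that makes sulfatide, and *Galc*, which degrades galactosylceramide, did not pass the test, with log2 fold changes of −0.38 ± 0.22 (SE) and −0.12 ± 0.07. Of the 7 other genes of ceramide synthesis tested, 0 passed and 6 had a negative fold change, between −0.13 and 0.02 in all, against 5092 negative of 11601 genes tested.

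Comparing bPYX+NT3 with naïve rats, 4 of 62 passed, 2 in each direction, a share close to the 6.01% of all genes tested, with a median log2 fold change of 0.003 against 0.0005 over all genes. *Sptssa*, a small subunit of serine palmitoyltransferase, fell by 0.20 on the log2 scale (SE 0.08, unadjusted p = 0.0271, edgeR) and *Hacd1* by 0.34 (SE 0.14, unadjusted p = 0.0304, edgeR). *Cptp*, a carrier of ceramide phosphate, rose by 0.16 (SE 0.06, unadjusted p = 0.0279, edgeR). The adjusted p of each of these 3 genes was 0.607. *Elovl1* and *Gltp* were at −0.19 and −0.08 here and did not pass. Set directly against each other, the injured groups differed by 0.09 in *Elovl1* and 0.26 in *Gltp* (unadjusted p = 0.377 and 0.0602, edgeR), neither past the threshold. The count of 4 was not stable, since it was 0 without rat 44, 1 without rat 45, 49, 2 or 11, 7 without rat 17 and 8 without rat 23. Over all genes tested the count was not stable either, from 365 to 1387 with 1 rat left out, against 703.

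Comparing the injured groups, 1 of 62 passed, again a share close to that of all genes tested (1.73%). It was *S1pr2*, a receptor for sphingosine phosphate, which rose by 0.33 (SE 0.15, unadjusted p = 0.0442, adjusted p = 0.851, edgeR). It ranged from 7.00 to 11.0 CPM with bPYX+GFP and from 8.98 to 14.1 CPM with bPYX+NT3, and the call was lost without any 1 of 8 of the 12 rats. The median over the 62 genes was 0.02 against 0.005 over all genes. Without rat 57 the count was 10, and it was 0 without rat 5, 15, 18, 21, 52, 2, 11 or 17, 2 without rat 23 or 40 and 3 without rat 39. The count over all genes tested ranged from 95 to 2291 with 1 rat left out, against 201, so these moves were not particular to the pathway.

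**Figure D5:**
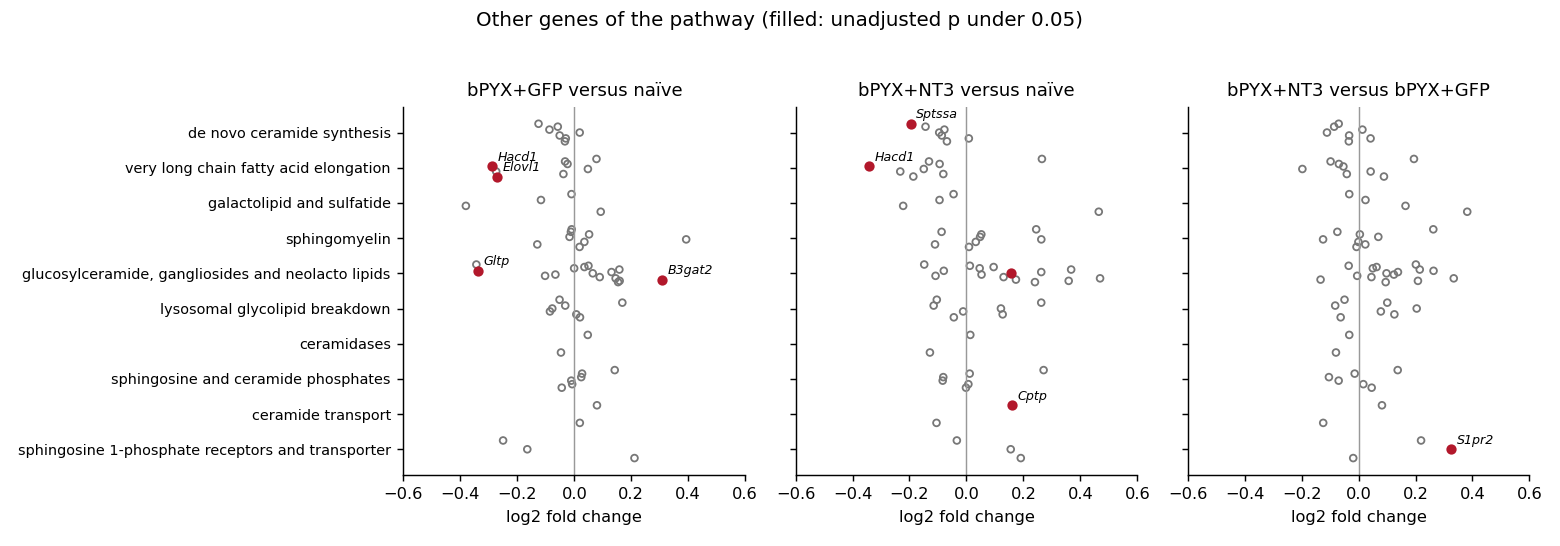
Fitted log2 fold change (x axis) of the 62 other pathway genes tested, 1 point per gene, in rows by their place in the pathway, for the 3 comparisons. Filled points have an unadjusted p under 0.05 in edgeR, 4, 4 and 1 of 62 in the comparisons from left to right, and those described in the text are named. The points lie between −0.38 and 0.47.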

How the data were processed

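Per the labels and the study's methods, the authors mapped reads with TopHat2 to Rnor_6.0, removed duplicate reads with Picard and deposited unnormalized counts of read-pairs per RefSeq identifier, made with HTSeq. Discarding duplicates and reads on several locations can lower the counts of abundant genes and of genes with close copies. Rows for unassigned read-pairs (no feature 30.8% to 34.6%, ambiguous 2.79% to 3.41%, several locations 19.0% to 22.3%) stayed out of library sizes and tests. RefSeq's table for GRCr8 gave a symbol for 14193 of the 15075 identifiers.

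Each group held 6 separate animals, taken from the headings of the count table. Pairwise fits used edgeR 4.0.16 in R 4.3.3 (TMM, glmQLFit, glmQLFTest) on genes with over 10 reads in 6 or more of 12 rats, with Benjamini-Hochberg adjustment over all of them. As in the study, a gene was called at an unadjusted p under 0.05. The test itself may differ, since for small RNAs the study lists LR, the statistic of edgeR's likelihood ratio test, which is an alternative here. For single genes and marker sums the groups were set against each other by exact permutation (two-sided, log2 scale, prior count 2 for CPM), and relations across rats were tested with 100000 resamples. Deviations from group means were shuffled over all rats, although removing the means makes values within a group depend on each other. The p values of these within-group relations can therefore be too small, which matters most near the threshold. Intervals are 95%. The members, the wider pathway list and the marker lists were chosen with earlier results of these data known. Named are all 10 members and, from the wider list, each gene called, at most 8 per comparison, of which 1 is not reported here.

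The alternatives were a likelihood ratio test, DESeq2 (version 1.42.0), other size factors, library size alone, no filter, a filter of 50 reads, 1 fit over the 3 groups, robust estimation, the no-feature share as covariate, the titles attached to the single-rat files, and leaving out each rat. The replicate block, leaving out rats 11 and 57, scaling to the myelin sum and the relations between members were added after seeing the data. The fits were tested on simulated data.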

Additional observations from a re-analysis of the deposited data

Results flagged for a closer look

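In 57 sets of 6 values (the 10 genes and 9 marker sums in each group), a single rat lay far from the other 5 in 11, with Dixon's ratio above its 95% critical value. Chance flags about 1 in 20 such sets. Rat 11 of the bPYX+NT3 group had the lowest *Ugt8* (196 CPM, the next rat 326 CPM) and *Sptlc2* (146 CPM, next 185 CPM) and the highest *Smpd1* (96.0 CPM, next 74.5 CPM). Rat 57 of the bPYX+GFP group had the highest *Degs1* (187 CPM, next 174 CPM) and *Smpd1* (85.0 CPM, next 70.0 CPM). The same rats had the highest sensory neuron marker sums, 5732 CPM (next 4197 CPM) in rat 11 and 5198 CPM (next 3885 CPM) in rat 57.

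The other 4 concern marker sums. The macrophage sum was highest in rat 17 of the bPYX+NT3 group (109 CPM, next 70.6 CPM) and the endothelial sum in rat 42 of the naïve group (122 CPM, next 99.7 CPM). The adipocyte sum, from 2 of 3 listed genes, was highest in rat 5 of the bPYX+GFP group (78.5 CPM, next 24.8 CPM) and in rat 17 of the bPYX+NT3 group (13.3 CPM, next 5.75 CPM).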

How the results depend on the processing

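The log2 fold change of *Fa2h* against naïve rats kept its sign under each alternative except the titles attached to the single-rat files. Those of *Ugt8*, *Cers2* and *B3gnt5* did too, but these genes were selected for their fall in these same rats, so this lends them no support. For *Ugt8*, *Cers2*, *B3gnt5* and *Fa2h* the attached titles gave 0.17, 0.017, 0.075 and 0.13 with bPYX+GFP and 0.62, 0.13, 0.62 and 0.44 with bPYX+NT3. That grouping called 0 of the 7 genes selected for the pathway with bPYX+GFP and 1 of 62 wider pathway genes in each comparison with naïve rats, and with bPYX+NT3 it called *Fa2h* in the opposite direction (higher, unadjusted p = 0.0170, edgeR). Calls among the 7 genes were 1, 1 and 0 in each fit that left out 1 rat. Leaving out rats 11 and 57 gave 1 call (*Fa2h*) between the injured groups. There the attached titles gave 0.45 for *Ugt8* and 0.55 for *B3gnt5*. The other 6 genes changed sign in 56 combinations of gene and fit, never past the threshold on either side. Depth was lowest for *B3gnt5*, with 166 to 539 reads in a rat.

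Counts of wider pathway genes, 4, 4 and 1, moved more. With 1 rat left out they ranged from 3 to 9 (bPYX+GFP against naïve), 0 to 8 (bPYX+NT3 against naïve) and 0 to 10 (between the injured groups). In the same order, the no-feature share as a covariate gave 11, 7 and 0 and leaving out rats 11 and 57 gave 9, 1 and 7. Between the injured groups, library size alone and 1 fit over the 3 groups gave 2 each. Counts over all genes, 377, 703 and 201, ranged from 272 to 595, 365 to 1387 and 95 to 2291 with 1 rat left out. Over all genes the covariate gave 848 in the first comparison, the attached titles 174 and 330 in the first and second, and leaving out rats 11 and 57 gave 595, 365 and 1462. Between the injured groups no filter gave 315 and the filter of 50 reads 133. The cause of these moves was not tested.

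Equal replicate numbers did not pair the rats, with correlations of deviations from −0.41 to 0.54 and 2, 5 and 3 of 6 pairs above 0.1. With the replicate block, bPYX+NT3 against naïve rats gave 2 of 7 genes (*Fa2h* and *Asah1*, the latter at −0.15), 21 wider pathway genes and 2962 of all genes, and the injured groups gave 0 wider pathway genes and 130 of all genes.

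For the relation to the myelin sum, deviations from the group means gave r = 0.54 for *Ugt8* and 0.44 for *B3gnt5*, and leaving out the 2 farthest rats gave 0.58 and 0.54, all no longer past the adjusted threshold. *Smpd1* turned from r = −0.13 to 0.060 without those rats and to 0.15 with library size alone, and *Asah1* from 0.17 to −0.10 with library size alone, none past the threshold. For *Ugcg*, library size alone moved rho from −0.22 to −0.56 (adjusted permutation p = 0.036).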

Other observations

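The sums of the other marker lists are given as values. Satellite glia (4 genes) summed to 838 to 932 CPM in naïve, 789 to 938 CPM in bPYX+GFP and 720 to 885 CPM with bPYX+NT3. Schwann and glial transcription factors (3 genes) summed to 79.8 to 133, 74.4 to 96.2 and 89.1 to 110 CPM, fibroblast genes (3) to 1303 to 1784, 1282 to 1672 and 1003 to 1710 CPM and endothelial genes (4) to 88.7 to 122, 85.7 to 115 and 88.1 to 126 CPM in the same order. Macrophage genes (4) summed to 52.6 to 103, 38.1 to 76.2 and 48.0 to 109 CPM and adipocyte genes (2) to 1.82 to 49.5, 2.41 to 78.5 and 1.90 to 13.3 CPM. By exact permutation tests of the sums with 6 rats per group and no adjustment for the 9 lists, the Schwann and glial transcription factors were lower after bPYX+GFP than in naïve rats (log2 difference −0.27, p = 0.0390) and higher after bPYX+NT3 than after bPYX+GFP (0.16, p = 0.0325). Most of this sum was *Egr2*, with a mean of 90.7 of 105.5 CPM in naïve rats. *Pou3f1* was at 3.85 CPM in naïve and 3.86 CPM in bPYX+GFP rats. Of the 3 genes, 1 was called lower in the first of these comparisons and 0 were called in the second. Fibroblast genes were lower after bPYX+NT3 than in naïve rats by the same exact test (log2 difference −0.30, p = 0.0433). The sensory neuron, satellite glia, macrophage, endothelial and adipocyte sums had exact permutation p values from 0.102 to 0.981 in the 3 comparisons.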
